A study of Mus musculus with 18 samples.

Results

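The nuclear genes for mitochondrial ribosomal proteins were taken by symbol: every gene whose symbol begins with Mrpl or Mrps followed by a digit, pseudogene symbols left out. This gave 77 of the 24035 genes counted, 48 named Mrpl for the large subunit and 29 named Mrps for the small subunit. The study sequenced ribosome-protected fragments (RPF), the pieces of message a ribosome covers and so protects from RNase I, and heat-fragmented mRNA from NIH3T3, an established line of mouse fibroblasts. Its 3 groups were vehicle-treated WT cells, WT cells with 3 h of Torin1 at 200 nM, and vehicle-treated cells edited at Mtor (G4448A) to encode C1483Y. Torin1 is an ATP-competitive inhibitor of the kinase mTOR. All groups were grown in the same medium with serum, and each had 3 libraries per assay, 18 in all. Nothing in the labels says that replicates were separate cultures or that more than a single edited line was used, so p-values measure the spread between these libraries. A change in the mix of cells cannot be told apart from a change per cell in such bulk libraries.

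The mitochondrial ribosome sits inside the organelle and makes the few respiratory chain proteins that mitochondrial DNA encodes. All of its proteins are encoded in the nucleus, made by cytosolic ribosomes and imported. Many descend from bacterial ribosomal proteins, and the others were added in the mitochondrial lineage. Transcripts of cytosolic ribosomal proteins begin with a C followed by an unbroken run of pyrimidines (the TOP motif), the feature through which mTOR inhibition lowers their translation. The symbol does not always give the place: Mrps30 and Mrps18a lie in the large subunit in mammalian structures, and Mrps36 is now known as a component of the 2-oxoglutarate dehydrogenase complex of the citric acid cycle.

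The start of the cytosolic gene Rps6 is set here beside 4 member starts, to show what the run of pyrimidines looks like and which other features were searched. Each line runs from 60 bases before to 15 bases after the annotated start, 5′ to 3′, in RefSeq's table for GRCm38.p6. Rps6 lies at chr4:86857353-86857427 (minus strand), and the capitals mark its run of 9 pyrimidines from the start. The stretches of Mrps36 (chr13:100744645-100744719, minus strand) and Mrps11 (chr7:78783071-78783145, plus strand), both members with large differences in RPF, hold no capitals because none of the features searched occurs there. In Mrpl43 (chr19:45006428-45006502, minus strand) the capitals mark the ETS motif CCGGAAG, and in Mrpl32 (chr13:14613023-14613097, minus strand) the NRF1 motif GCATGCGC.
Rps6: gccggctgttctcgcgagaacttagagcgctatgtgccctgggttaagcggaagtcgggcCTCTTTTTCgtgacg
Mrps36: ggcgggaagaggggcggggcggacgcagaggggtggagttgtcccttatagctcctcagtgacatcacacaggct
Mrps11: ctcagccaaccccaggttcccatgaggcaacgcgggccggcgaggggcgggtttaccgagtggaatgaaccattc
Mrpl43: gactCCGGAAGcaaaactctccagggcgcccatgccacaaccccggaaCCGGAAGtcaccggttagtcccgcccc
Mrpl32: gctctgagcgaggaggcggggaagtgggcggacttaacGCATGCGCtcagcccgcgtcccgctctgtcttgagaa

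RefSeq gave a position for all 77 members, spread over 17 chromosomes, and a promoter window for 68 (250 bases before to 50 after a start). In 48 of the 68 the start was the outer end of the gene, and in the other 20 it lay inside the annotated gene. No member window began with a C and a run of at least 5 pyrimidines, against 13 of 59 windows of cytosolic ribosomal protein genes and 2.48% of all 27025 windows. Transcripts of the cytosolic genes are known for this run, yet the search at annotated starts missed it in most of their windows. The search therefore cannot decide whether transcripts of the members begin with such a run. The ETS motif, searched on both strands as all motifs were, occurred in 23 of 68 member windows (33.8%), 23 of 59 cytosolic ribosomal protein windows and 9.14% of all windows. The NRF1 motif occurred in 11.8%, 3.39% and 2.8% of these, and the YY1 motif AAGATGGC in 17.6%, 8.47% and 2.87%. By subunit, the NRF1 motif was in 7 of 42 Mrpl windows and 1 of 26 Mrps windows, and the ETS motif in 31.0% and 38.5%. These are matches of letters, not measured binding.

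Members often shared their start region with a gene on the other strand. A start pointing away within 1000 bases was annotated for 26 of 68 members (38.2%), against 11.4% of all windows and 16.9% for cytosolic ribosomal proteins. Mrps11, of the small subunit, and Mrpl46, of the large subunit, stand head to head on chromosome 7 with 42 bases between their starts. Mrpl43 is paired with Twnk, the mitochondrial DNA helicase, at 116 bases, and Mrps12 with Sars2, the mitochondrial seryl-tRNA synthetase, at 147 bases. Of the 77 members, 20 overlap another gene of the files, and 4 (Mrpl23, Mrpl27, Mrpl48 and Mrps36) have RefSeq pseudogenes named after them, so their read counts are uncertain. Pseudogenes under other symbols were not searched for, so other members may have them too.

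Gene reads per library ran from 4.68 to 42.82 M in RPF and from 4.42 to 94.3 M in mRNA. The mRNA libraries C1483Y replicate 2 and Torin1 replicate 3 stand apart, being nearly the same library by content: 34 of the 35 members with at least 50 reads in either had them in both, and the other 42 had at most 9 reads in either. Their group values therefore share data. Calls, medians and the named members that rest most on them are also given without them, and per-library values show what each library adds. The libraries labelled C1483Y also stand apart in RPF, where 6 fibroblast markers (Col1a1, Col1a2, Col3a1, Sparc, Vim and Fn1) summed to 2030 to 3390 CPM (the usual depth-scaled count, TMM-adjusted), against 20000 to 29000 in WT and 14000 to 21900 in Torin1.

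Coverage of the members differed between the assays. In WT, 75 of 77 members had at least 10 reads in all 3 RPF libraries, but 33 did so in mRNA. The highest WT library was a median of 1.75-fold above the lowest in RPF and 37.4-fold in mRNA. Among members with at least 500 reads in some WT mRNA library, 37 of 71 (52.1%) had at most 5 in another, where all genes gave 60%. In RPF it was 1 of 74 members (1.35%; all genes 2.84%). The members with at least 10 reads in every mRNA library were Mrpl13, Mrpl17, Mrpl28 and Mrps23. The RPF values below are therefore the firmer ones.

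In RPF, the mitochondrial ribosomal proteins as a whole stood a little lower in Torin1 than in WT, for both subunits, with no single gene past the threshold. The 48 Mrpl genes summed to 2173, 1937 and 2377 CPM in the WT libraries (2162 ± 220, SD, n = 3) and to 1696, 1533 and 1829 in Torin1 (1686 ± 148). The 29 Mrps genes summed to 1420, 1181 and 1447 CPM in WT (1349 ± 147) and to 1048, 886 and 1019 in Torin1 (985 ± 86.4). For both subunits every Torin1 library lay below every WT library. Against this, the 79 cytosolic ribosomal protein genes summed to 72440 ± 5666 CPM in WT and 19292 ± 1630 in Torin1.

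**Figure D1:**
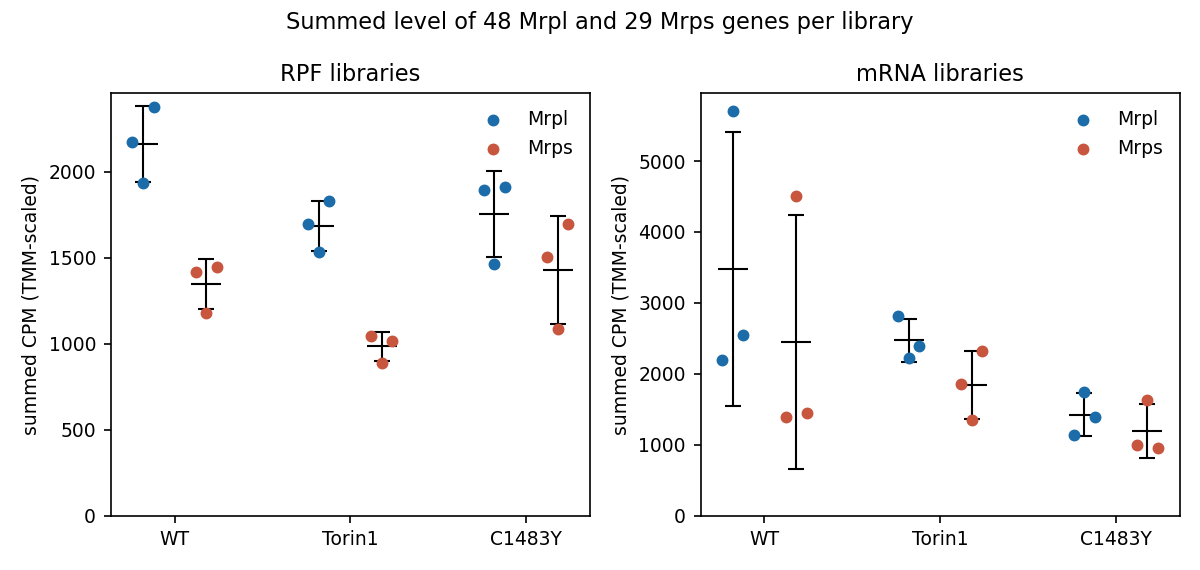
Summed TMM-scaled CPM of the 48 Mrpl and 29 Mrps genes in each library, RPF and mRNA in separate panels; points are libraries and bars the mean and SD over 3. In RPF the Torin1 points lie below the WT points for both subunits (1533 to 1829 against 1937 to 2377 for Mrpl). In mRNA Torin1 and WT overlap, while the C1483Y Mrpl sums (1136 to 1745) lie below those of both. The gap between C1483Y and Torin1 depends on the TMM scaling. Without it, the near-identical libraries C1483Y replicate 2 and Torin1 replicate 3 had 1938 and 1896 Mrpl reads per M gene reads. By that share C1483Y (810 to 1938) overlaps Torin1 (1896 to 3331) and stays below WT (2971 to 3699).

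Gene by gene, edgeR's quasi-likelihood test called 0 of 77 members at an adjusted p of 0.05, where 0.749% of all 11085 genes tested were called, 0.74% lower and 0.00902% higher. A single member, Mrps36, had an unadjusted p under 0.05, where 460 of the 11085 genes did. DESeq2 also called 0 and limma-voom called 1. The log2 fold change was below 0 for 59 members and above 0 for 18, against 47.4% below 0 over all genes. Its median was -0.42 for Mrpl, -0.34 for Mrps and 0.03 over all genes, and single members ranged from -2.51 to 1.38. All 3 Torin1 libraries lay below all 3 WT libraries for 17 members (22.1%), 11 Mrpl and 6 Mrps, where the share over all genes was 10.7%. They lay above for 1 member, Mrpl2 (1.3%, all genes 8.48%).

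The size of the difference varied between libraries and between classes of protein. Set against the WT mean, the median Mrpl gene stood at log2 -0.42, -0.90 and -0.18 in the 3 Torin1 libraries, and the median Mrps gene at -0.24, -0.99 and -0.50. WT libraries themselves ranged from -0.20 to 0.22 for Mrpl, so the third Torin1 library lay near WT for the large subunit. Members with bacterial counterparts had medians of -0.56 in the large subunit (29 genes, 9 with all Torin1 libraries lowest) and -0.58 in the small subunit (16 genes, 5 of them). Members specific to mitochondria had medians of -0.18 (21 genes, 2 of them) and -0.20 (10 genes, 0 of them). In the same order, 31%, 31.2%, 9.52% and 0% of these classes had all Torin1 libraries lowest, beside 10.7% of all genes. The median SE of a single member was 0.75, 0.9, 0.99 and 0.93, and the difference between the classes was not tested. Mrps18a and Mrps18b were counted as specific to mitochondria and Mrps18c as having a bacterial counterpart, although all 3 have a common bacterial ancestor. The cytosolic ribosomal proteins, by contrast, had a median of -1.98, with 58 of 75 called lower and none above 0. Rps6, a protein of the cytosolic small subunit, was the example printed above: 3424, 3188 and 3969 RPF CPM in WT and 872, 683 and 840 in Torin1, a log2 fold change of -2.14 ± 0.23 (SE; edgeR adjusted p = 0.00126).

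**Figure D2:**
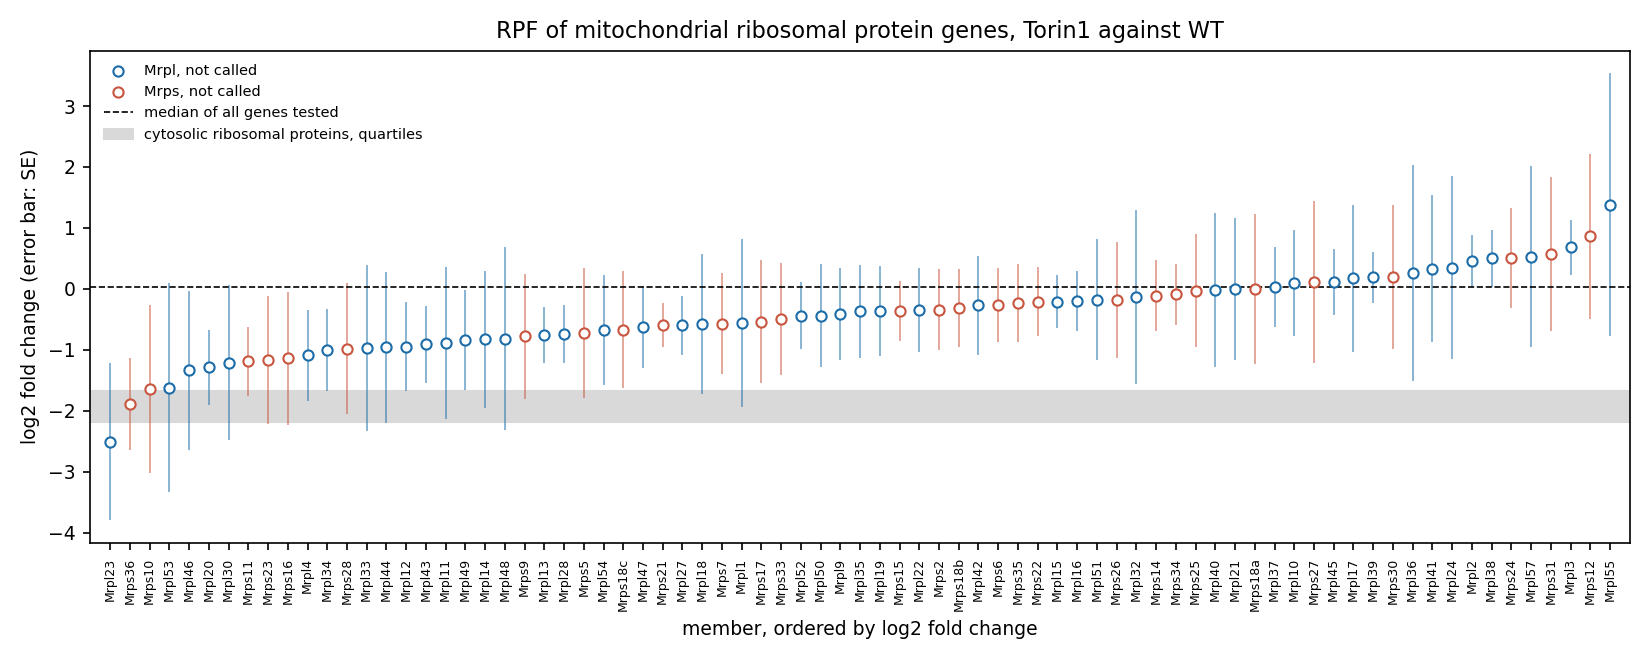
Log2 fold change of RPF, Torin1 against WT, for the 77 members in order, with SE as error bars, Mrpl and Mrps in separate colours, the median of all genes as a dashed line and the quartiles of cytosolic ribosomal proteins as a band. No member is called, 59 lie below 0, and few reach the band from -2.18 to -1.67.

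Mrps36 (chromosome 13, 100735940 to 100744659) showed the lowest p of all members. Its RPF level was 90.2, 66.8 and 69.8 CPM in WT and 28.1, 13.5 and 19.8 in Torin1, with a wide gap between the groups. The log2 fold change was -1.89 ± 0.75 (edgeR adjusted p = 0.967). It passed the threshold in limma-voom (adjusted p = 0.0377) and with the 2 groups fitted alone by edgeR (0.0456). The gene has 3 annotated pseudogenes, and reads that match several places did not enter the counts. Mrps36 is also the member whose protein is no longer counted as a ribosomal subunit.

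Among large-subunit members with bacterial counterparts, Mrpl20 gave 55.7, 54.2 and 44.4 RPF CPM in WT and 26.7, 15.7 and 20.8 in Torin1. The groups did not overlap, and the log2 fold change was -1.29 ± 0.61 (edgeR adjusted p = 1). Mrpl23, whose bacterial counterpart lies at the mouth of the peptide exit tunnel, gave 12, 19.6 and 27.1 CPM in WT and 6.12, 0 and 4.15 in Torin1. Its groups were also apart at these low levels, with a log2 fold change of -2.51 ± 1.29 (adjusted p = 1). Mrpl13 stood at 64.7, 81.6 and 93.6 CPM in WT and 54.2, 40.8 and 46.9 in Torin1, again without overlap (log2 -0.76 ± 0.46, adjusted p = 1).

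Most other named large-subunit members overlapped between the groups. Mrpl28 had 105, 85.6 and 150 RPF CPM in WT and 57.1, 90.5 and 55.7 in Torin1, where the second Torin1 library reached the WT range. Mrpl3, whose bacterial counterpart reaches toward the peptidyl transferase centre, had the smallest p among members above WT: 75.7, 37.3 and 42.3 CPM in WT and 60.2, 87.5 and 101 in Torin1 (log2 0.68 ± 0.45, edgeR adjusted p = 1). The stalk proteins, which recruit translation factors, had log2 values of opposite sign. Mrpl12 stood at 72.4, 46.3 and 92.1 CPM in WT and 46.1, 26.7 and 36.6 in Torin1, just short of overlap (log2 -0.95 ± 0.73). Mrpl10, which anchors it, stood at 28.3, 34.4 and 18.7 in WT and 42.3, 6.47 and 38.3 in Torin1, on both sides of WT (log2 0.10 ± 0.87). Both had an adjusted p of 1, and the difference between the genes was not tested.

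In the small subunit, Mrps11, of the platform in bacterial ribosomes, had 65.1, 95.3 and 68.2 RPF CPM in WT and 50.1, 15.4 and 34.7 in Torin1. No library of the groups overlapped, with a log2 fold change of -1.19 ± 0.57 (edgeR adjusted p = 1). Its head-to-head neighbour Mrpl46 stood at 26.6, 39.8 and 52.5 CPM in WT and 15.1, 20.5 and 11.4 in Torin1, also without overlap. In the head-to-head pair Mrps12 and Sars2 the groups overlapped for each gene. Whether genes that share a start region move together was not tested. Mrps10 had 25.3, 19.3 and 40.1 CPM in WT and 10.2, 5.85 and 11.1 in Torin1 (log2 -1.64 ± 1.38, adjusted p = 1). Mrps21, the member with the highest mean RPF CPM in WT, had 103, 89.4 and 168 CPM there and 82.7, 56 and 98.6 in Torin1. Its groups overlapped (log2 -0.60 ± 0.36).

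Members outside the rule for named genes that also had every Torin1 library below every WT library were Mrpl11, Mrpl27, Mrpl30, Mrpl34, Mrpl47, Mrpl53, Mrps5, Mrps9 and Mrps16, singled out after their values were seen. Mrps16 had 39.3, 38.5 and 27.9 RPF CPM in WT and 19.3, 15.4 and 13.1 in Torin1 (log2 -1.14 ± 1.09, edgeR adjusted p = 1). Mrpl34 had 73.5, 45.7 and 65.6 CPM in WT and 39.3, 26.6 and 26.5 in Torin1 (log2 -1.0 ± 0.67). Mrps9 was almost constant in WT at 50.5, 50.4 and 52.5 CPM and had 41.7, 0.626 and 47.2 in Torin1, so that its lower mean came mainly from the second library. The 1 member with all Torin1 libraries above WT, Mrpl2, whose bacterial counterpart lines the peptidyl transferase region, had 49.3, 65.2 and 54.3 CPM in WT and 67.1, 87.1 and 78.2 in Torin1 (log2 0.46 ± 0.43, adjusted p = 1).

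Mrps23 spread widely within WT, at 26.8, 15.8 and 84.9 RPF CPM, and stood at 19.3, 10.4 and 27.5 in Torin1 (log2 -1.16 ± 1.05). Without WT replicate 3 the log2 fold change was -0.16. It overlaps Cuedc1 in the annotation. The largest differences above WT among members with a mean of at least 10 CPM were those of Mrpl3, Mrps12 and Mrps31, and none passed the test. Mrps12, of the decoding centre in bacteria, had 6.18, 11.6 and 4.74 CPM in WT and 10.6, 27.2 and 3.15 in Torin1 (log2 0.86 ± 1.35). Mrps31 had 24.7, 25.6 and 18.5 CPM in WT and 32.2, 45.4 and 24.7 in Torin1 (log2 0.57 ± 1.27). Both genes overlapped between the groups.

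The paralogs Mrps18a, Mrps18b and Mrps18c had log2 fold changes of -0.00 ± 1.23, -0.32 ± 0.64 and -0.67 ± 0.96 (edgeR, adjusted p = 1 for each). Mrps18b had 55.3, 51.3 and 42.7 RPF CPM in WT and 61.8, 10.6 and 47.4 in Torin1, its lowest value coming from the second library. Mrps18c had 36.9, 29.7 and 16.6 CPM in WT and 25.5, 12.4 and 14.2 in Torin1. Mrps30, a small-subunit name in the large subunit, was nearly constant in WT at 43.7, 44.2 and 43.6 CPM and spread over 38, 84.9 and 27.7 in Torin1. None of these 4 genes separated the groups.

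**Figure D3:**
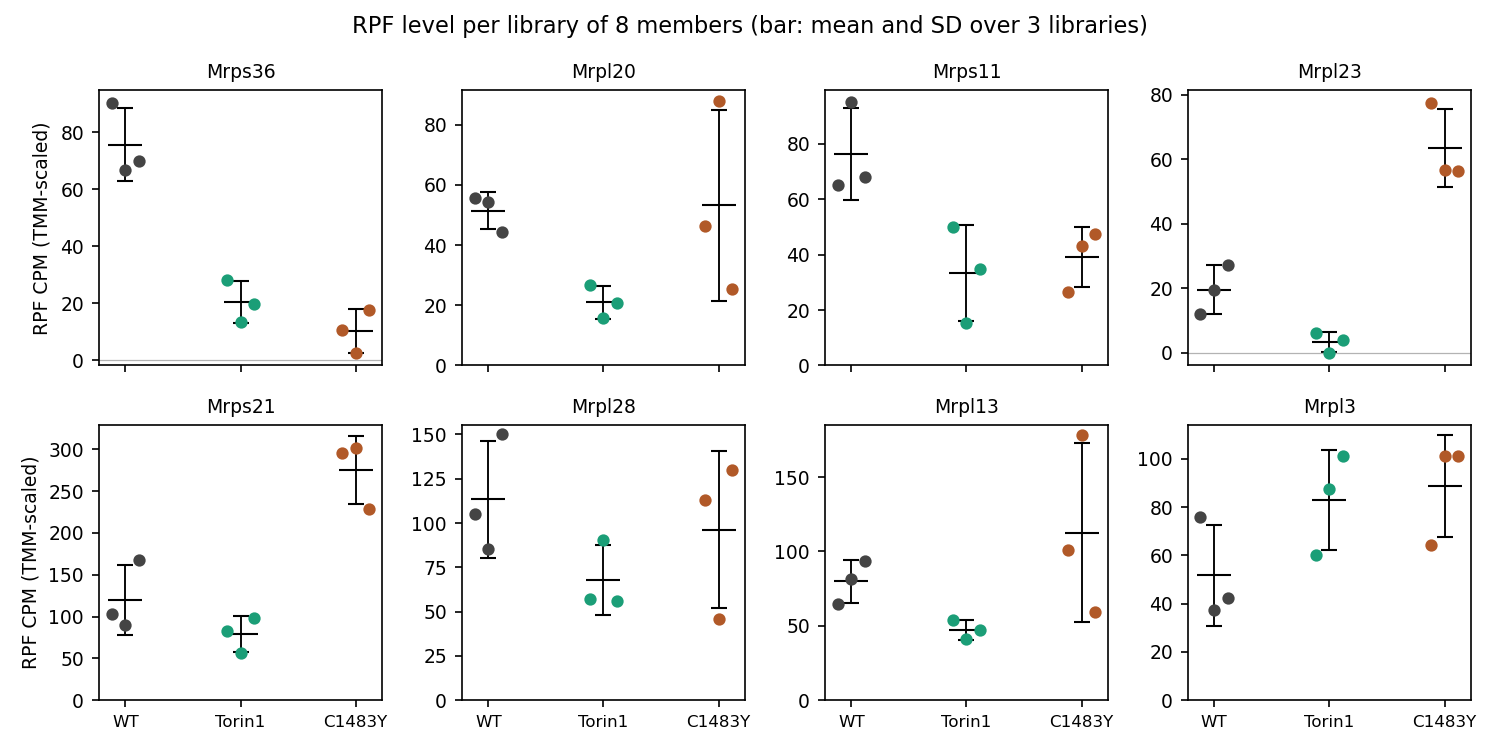
RPF level (TMM-scaled CPM) of 8 members in each library of WT, Torin1 and C1483Y; points are libraries, the bar is the mean and the whisker the SD over 3. Mrps36, Mrpl20, Mrps11, Mrpl23 and Mrpl13 have all Torin1 points below all WT points, and Mrpl3 overlaps.

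Genes that serve the mitochondrial ribosome without carrying these symbols were compared in the same fit. Of 6 ribosome proteins under other symbols none was called in Torin1 RPF, with a median log2 of -0.29. Ict1, a peptidyl-tRNA hydrolase built into the large subunit, had 66.3, 83.7 and 67 CPM in WT and 37.9, 24.2 and 20.2 in Torin1 (log2 -1.40 ± 0.64, edgeR adjusted p = 1). Dap3, a GTP-binding protein of the small subunit, had 66.8, 46.4 and 50.6 CPM in WT and 69.9, 56 and 84.2 in Torin1. None of 15 translation factors (median -0.08), 23 assembly factors (0.07) or 17 mitochondrial tRNA synthetases (-0.15) was called either. Summed as the members were, the translation factors had 823, 830 and 817 CPM in WT and 735, 628 and 652 in Torin1, also without overlap. The sums of the assembly factors, the synthetases and the ribosome proteins under other symbols overlapped between the groups. Tufm, the mitochondrial elongation factor Tu, had 178, 154 and 246 CPM in WT and 121, 74.7 and 132 in Torin1, without overlap (log2 -0.82 ± 0.36, adjusted p = 1).

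In mRNA, the same genes showed no difference between Torin1 and WT that the spread allowed to be called. Mrpl genes summed to 2197, 5701 and 2543 CPM in WT and 2812, 2217 and 2387 in Torin1. Mrps genes summed to 1395, 4513 and 1445 CPM in WT and 1862, 1356 and 2318 in Torin1. The second WT library was far above the others for both subunits, and the groups overlapped.

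Of 68 members that passed the low-count filter in mRNA, edgeR called 0, where 0.014% of 7121 genes were called. Its unadjusted p was under 0.05 for 3 of the 68 members and for 507 of the 7121 genes. DESeq2 called 2 and limma-voom 0. The median log2 fold change was -0.30 for Mrpl, -0.49 for Mrps and 0.02 over all genes, with a median SE of 3.39 over the members; it was below 0 for 40 of them (all genes 49.5%). All Torin1 libraries lay below all WT libraries for 3 members (4.41%; all genes 4.42%) and above for 5 (7.35%; all genes 5.39%). The 9 members that did not pass were Mrpl1, Mrpl10, Mrpl23, Mrpl24, Mrpl32, Mrpl36, Mrpl55, Mrps10 and Mrps36, so the RPF values of Mrps36 and Mrpl23 have no mRNA test beside them.

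The members with the smallest p in mRNA were those with libraries at or near 0 reads. Mrps34 (chromosome 17, 24895120 to 24896289) had 58.3, 287 and 27.8 mRNA CPM in WT and 0.21, 0.0182 and 0.0328 in Torin1, the last being 3, 1 and 1 reads (edgeR log2 -10.51 ± 4.07, adjusted p = 0.67). Mrps22 (chromosome 9, 98588730 to 98601679) went the other way, with 0, 1 and 1 reads in WT and 851, 4002 and 3075 in Torin1. Scaled for depth that ratio was 6507 (95% counting interval 1801 to 53739; adjusted p = 0.67). Mrps31 had 0, 2 and 0 reads in WT and 1877, 0 and 2031 in Torin1. None of these differences passed the test across genes. Without the near-identical libraries the log2 fold changes of Mrps34, Mrps22 and Mrps31 were -10.16, 12.16 and 12.09 (adjusted p = 0.689 for each).

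For large-subunit members the pattern in mRNA was alike. Mrpl43 had 90, 655 and 109 mRNA CPM in WT and 33.5, 0.618 and 0.0657 in Torin1 (log2 -4.64 ± 3.02, edgeR adjusted p = 0.988), and -4.08 without the near-identical libraries. Mrpl46 had 124, 445 and 10.3 CPM in WT and 34.4, 0 and 0 in Torin1, so its log2 fold change ran from -15.9 without Torin1 replicate 1 to -2.55 without WT replicate 2. Mrpl44, a large-subunit protein with an RNase III-like fold, had 32.1, 0.0163 and 28.4 CPM in WT and 2.31, 0.0182 and 0 in Torin1. Mrpl28, with reads in every library, stood at 53.2, 49.4 and 185 CPM in WT and 126, 70.9 and 36.9 in Torin1. Its groups overlapped (log2 -0.30 ± 2.56, adjusted p = 1).

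**Figure D4:**
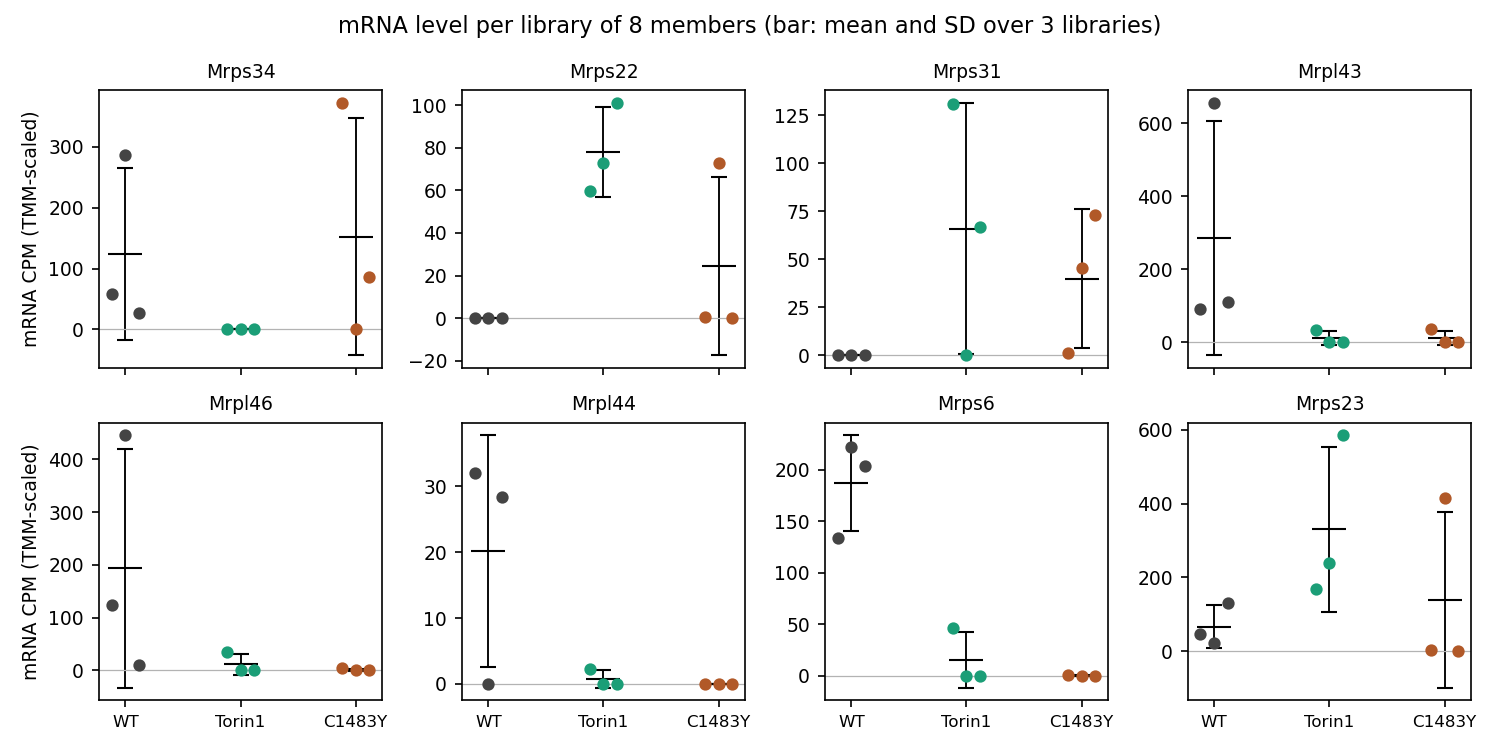
mRNA level (TMM-scaled CPM) of 8 members in each library of WT, Torin1 and C1483Y; points are libraries, the bar is the mean and the whisker the SD over 3 (a whisker below 0 shows only that the SD exceeds the mean). Libraries at or near 0 occur within groups that also hold much higher levels, as for Mrpl46 in Torin1 (34.4, 0 and 0) and Mrpl44 in WT (32.1, 0.0163 and 28.4).

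RPF in WT did not follow those gaps in mRNA. There were 4 members with at most 5 mRNA reads over the 3 WT libraries together, and all had RPF reads. Mrps22 had 2 mRNA reads and 3615 RPF reads in WT, Mrps31 had 2 and 1751, Mrpl23 had 2 and 1428, and Mrpl55 had 0 and 205. The mRNA levels of these genes in WT can therefore not be read as the amount of message that ribosomes held.

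Translational efficiency (TE), RPF relative to mRNA, was tested as an interaction over all 18 libraries, and edgeR called 0 of 68 members, where 0.0283% of 7072 genes were called. There were 3 members with an unadjusted p under 0.05, as against 782 of the 7072 genes, while DESeq2 called 3 members and limma-voom 1. The median log2 TE difference was -0.06 for Mrpl, 0.21 for Mrps and -0.08 over all genes, and 33 members lay below 0 (all genes 51.6%). With DESeq2-type size factors the Mrps median was -0.06, so it has no firm sign. The largest TE differences were those of mRNA read the other way round. Mrps22 had a log2 TE difference of -12.41 ± 3.34 (edgeR adjusted p = 0.213), while its RPF level was 47.2, 55.6 and 32.9 CPM in WT and 45.6, 43.3 and 28.1 in Torin1. For Mrps34 it was 10.50 ± 3.12 (adjusted p = 0.223), beside RPF levels of 49.2, 35.8 and 95.4 CPM in WT and 42.4, 42.5 and 84.5 in Torin1.

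The RPF groups of both genes overlapped, and their groups were far apart in mRNA alone. Mrps31 had a log2 TE difference of -11.37 ± 4.18 (edgeR adjusted p = 0.241). Among Mrpl members the smallest p belonged to Mrpl43 (3.78 ± 2.83), Mrpl44 (3.8 ± 3.84) and Mrpl52 (-3.07 ± 3.38), each with an adjusted p of 0.999. These rest on single mRNA libraries: without Torin1 replicate 1 Mrpl43 stood at 8.73 and Mrpl44 at 9.54, without WT replicate 2 Mrpl43 stood at 2.26, and without WT replicate 1 Mrpl52 stood at -9.9. Without the near-identical mRNA libraries, edgeR called 1 member in TE, Mrps22 (-12.14, adjusted p = 0.0203), and 0 in mRNA. The mRNA medians were then -0.41 for Mrpl and 0.02 for Mrps, beside -0.24 over all genes, and the TE medians -0.29 and -0.37, beside 0.23.

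The libraries labelled C1483Y were compared with the same WT libraries, so the results below share their controls with those above. In RPF, edgeR called 9 of 77 members, 2 higher and 7 lower, a smaller share than the background, where 18.6% of all genes were called, 7.91% higher and 10.7% lower. The count was 17 without C1483Y replicate 2, and 3, 3 and 4 without WT replicate 1, 2 and 3. The shares of all genes called in those fits are not given here, so these counts show only that the calls depend on single libraries. The calls were 0 higher and 4 lower among Mrpl and 2 higher and 3 lower among Mrps. The median log2 fold change was -0.28 for Mrpl, -0.38 for Mrps and -0.27 over all genes, and 47 members lay below 0 where 55.6% of all genes did. All 3 libraries lay below all WT libraries for 29 members (37.7%; all genes 27.4%) and above for 6 (7.79%; all genes 16.5%).

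The summed balance between the subunits differed in these libraries, but the groups overlapped once a single gene was left out. Mrpl genes summed to 1894, 1465 and 1910 RPF CPM and Mrps genes to 1508, 1087 and 1697. There were thus 1.26, 1.35 and 1.13 Mrpl reads per Mrps read (1.24 ± 0.112, SD, n = 3), against 1.53, 1.64 and 1.64 in WT (1.6 ± 0.0638) and 1.62, 1.73 and 1.79 in Torin1 (1.71 ± 0.0893). With Mrps21, described next, taken out of the Mrps sum, an alternative chosen after seeing the data, the C1483Y ratios were 1.56, 1.86 and 1.3 and overlapped those of WT (1.65, 1.77 and 1.86). The mean ratio then stood at 1.58 in C1483Y, still below 1.76 in WT. The medians over genes given above were no lower for Mrpl than for Mrps. In mRNA the ratios overlapped, at 1.15, 1.07 and 1.45 in C1483Y and 1.57, 1.26 and 1.76 in WT.

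Both called rises were among the 29 Mrps genes, where 7.91% of all genes were called higher. All C1483Y libraries lay above all WT libraries for 6 members, a smaller share than the 16.5% of all genes. Of these 6, 4 were Mrpl genes, as are 48 of the 77 members, so neither count sets a subunit apart. Mrps21 stood at 103, 89.4 and 168 RPF CPM in WT and rose to 296, 301 and 228 in C1483Y, with the groups apart (log2 1.20 ± 0.37, edgeR adjusted p = 0.0424). Mrps24, which corresponds to the bacterial protein at the mRNA entry, stood at 23.3, 9.96 and 6.17 CPM and rose to 59.2, 119 and 106 (log2 2.85 ± 0.87, adjusted p = 0.0423). Each kept its call in 6 of 12 alternatives. Of the 4 Mrpl genes, none of them called, Mrpl23 and Mrpl52 were named after their values were seen. Mrpl23 had 12, 19.6 and 27.1 CPM in WT and 77.4, 56.8 and 56.3 in C1483Y. Mrpl52 had 26.2, 19.2 and 39.7 CPM in WT and 67.2, 83.7 and 84.6 in C1483Y.

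Among called genes, Mrpl42 and Mrps28 had almost no reads left, and Mrpl35 followed. Mrpl42, a large-subunit protein specific to mitochondria, had 43.5, 43.1 and 60.6 RPF CPM in WT and 3, 0 and 1 reads in C1483Y (edgeR log2 -7.35 ± 1.12, adjusted p = 0.00131). Mrps28 had 32.1, 54.5 and 19.2 CPM in WT and 0, 0 and 2 reads in C1483Y, which is 305 times less after scaling for depth (84.3 to 2518 times at 95% counting confidence; edgeR adjusted p = 0.00484). Mrpl35 had 104, 102 and 70.7 CPM in WT and 13.2, 0.584 and 5.38 in C1483Y (log2 -3.85 ± 0.86, adjusted p = 0.0101). The calls of these 3 genes held in all 12 alternatives, and no library of the groups overlapped. The size of the fall is less certain: without C1483Y replicate 3 Mrps28 stood at -12.44, without replicate 1 Mrpl42 stood at -8.87 and Mrpl35 at -5.13, and without replicate 2 at -6.77 and -3.34. Mrpl36 (-6.05 ± 2.33, adjusted p = 0.0979) and Mrpl33 (-4.78 ± 1.60, adjusted p = 0.0596), named after their values were seen, had larger fitted differences than Mrpl35 but were not called.

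The other falls were smaller or less stable. Mrps17 had 62.9, 56.7 and 88.3 RPF CPM in WT and 9.59, 0 and 6.28 in C1483Y (log2 -3.71 ± 1.13, edgeR adjusted p = 0.0417). Mrpl50 had 22.6, 28.1 and 40.8 CPM in WT and 2.97, 0.973 and 3.14 in C1483Y (log2 -3.69 ± 0.95, adjusted p = 0.02). Mrps36 stood at 10.5, 2.53 and 17.7 CPM in C1483Y (log2 -2.88 ± 0.78, adjusted p = 0.0257). These kept their calls in 6, 7 and 8 of 12 alternatives. The ninth call, Mrpl34, was named after its values were seen: it had 73.5, 45.7 and 65.6 CPM in WT and 23.3, 7.4 and 7.4 in C1483Y (log2 -2.28 ± 0.70, adjusted p = 0.0423), and kept its call in 4.

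**Figure D5:**
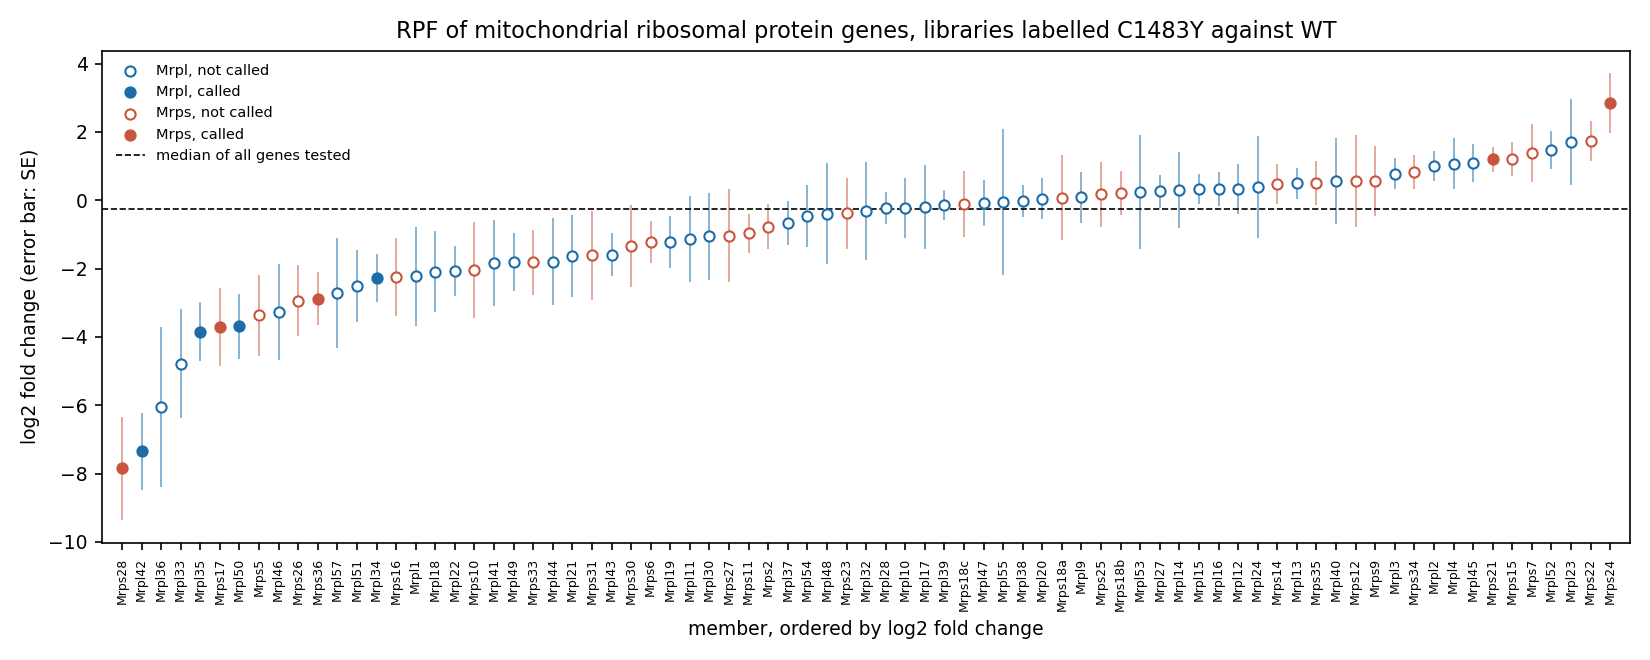
Log2 fold change of RPF, libraries labelled C1483Y against WT, for the 77 members in order, with SE as error bars; filled points are called by edgeR and the dashed line is the median of all genes (-0.27). The 7 called falls lie toward the lower end and the 2 called rises toward the upper end. Uncalled members lie among them at both ends as well as between them.

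Several features of these libraries moved with the C1483Y results, and their part in them was not tested. Gene reads were 4.68 to 6.96 M in C1483Y and 13.04 to 42.82 M in WT. The second C1483Y library lacked reads for 19 members. Against the WT mean, its median stood at log2 -2.03 for Mrpl, -2.19 for Mrps and -1.6 over all genes tested. RPF of 3 muscle markers (Myod1, Des and Acta1, 1 of them at 0 throughout) summed to 938 to 1510 CPM in C1483Y and 6.48 to 43 in WT. RPF of 3 neuron markers (Tubb3, Uchl1 and Map2) summed to 1300 to 1690 CPM and 15.7 to 22.4, and of 4 epithelial markers to 27.6 to 114 CPM and 0, while 3 leukocyte and 2 endothelial markers were at 0 in C1483Y. Gene-level counts cannot reveal the edit in Mtor, so the label itself was not checked.

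Few partner genes of the mitochondrial ribosome were called in C1483Y RPF, at shares near or below the 18.6% of all genes. Tufm rose from 178, 154 and 246 CPM in WT to 591, 354 and 791 (log2 1.59 ± 0.37, edgeR adjusted p = 0.012). Lrpprc, which stabilises mitochondrial mRNA, fell from 245, 275 and 238 CPM to 95.5, 89.4 and 139 (log2 -1.23 ± 0.31, adjusted p = 0.0183). The initiation factor Mtif3 also fell, giving 1 rise and 2 falls among 15 translation factors. Of 17 mitochondrial tRNA synthetases Lars2 and Tars2 rose, and of 23 assembly factors Wbscr16 rose (log2 2.84 ± 0.78, adjusted p = 0.0264). None of the 6 ribosome proteins under other symbols was called. Cytosolic ribosomal proteins had 17 rises and 13 falls among 75.

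The mRNA libraries labelled C1483Y differed from WT in the same markers and in read placement, but not all 3 libraries did so. The part of this in the mRNA and TE results below was not tested. The 6 fibroblast markers summed to 1280 to 14000 mRNA CPM in C1483Y and 9570 to 18100 in WT, the 3 muscle markers to 0.128 to 3720 and 0.196 to 0.222, and the 3 neuron markers to 0.0851 to 1930 and 0.0277 to 0.0452. The lowest C1483Y muscle and neuron sums were smaller than a single read in replicate 1 or 3 (0.317 and 0.189 CPM). They therefore belong to replicate 2, the library nearly shared with Torin1, which stood near WT in these markers. Epithelial, leukocyte and endothelial markers were at 0 in both groups. Reads placed at several sites made up 95.9%, 59.5% and 90.8% of counted lines in C1483Y replicates 1, 2 and 3, and 65.6% to 66.4% in WT.

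In C1483Y mRNA, edgeR called 0 of 68 members, where 0.323% of all genes were called. Its unadjusted p was under 0.05 for 6 of the 68 members and for 621 of the 7121 genes. DESeq2 called 1 and limma-voom 0. The median log2 fold change was -2.52 for Mrpl, -0.75 for Mrps and -0.50 over all genes. Scaling by DESeq2-type size factors moved the median of all genes to 0.99, so values are better read relative to it: -2.02 for Mrpl and -0.25 for Mrps under TMM, and -2.33 and -0.22 under size factors. All C1483Y libraries lay below all WT libraries for 14 members (20.6%; all genes 9.49%) and above for 2 (2.94%; all genes 3.23%), and the log2 fold change was below 0 for 49 (all genes 56.8%). Without the near-identical libraries the medians were -6.44 for Mrpl and -4.11 for Mrps, beside -2.51 over all genes.

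Mrps6 had 134, 222 and 204 mRNA CPM in WT and 0.634, 0.0213 and 0.189 in C1483Y (log2 -9.47 ± 4.38, edgeR adjusted p = 0.544). It shares its locus with Slc5a3, so reads of the overlap were uncertain. Mrpl51 had 69.9, 240 and 125 mRNA CPM in WT and 0.634, 0 and 0.379 in C1483Y (log2 -8.82 ± 4.27, edgeR adjusted p = 0.544). Mrps22 and Mrps31 again had almost no reads in WT, and stood at 0.317, 72.8 and 0.189 CPM and at 1.27, 45.5 and 73.1 in C1483Y (adjusted p = 0.544 for both). The high value of Mrps22 came from replicate 2, the library nearly shared with Torin1, and without that pair its log2 fold change was 4.05 where it had been 10.73. Relative to WT the depth-scaled ratios were 5054 (95% counting interval 1398 to 41748) for Mrps22 and 3733 (1032 to 30845) for Mrps31, whose log2 fold change was 11.21 without the near-identical libraries.

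For C1483Y TE, edgeR called 0 of 68 members and 0% of all genes. Its unadjusted p was under 0.05 for 9 of the 68 members and for 953 of the 7072 genes. DESeq2 called 2 and limma-voom 0. The median log2 TE difference was 1.5 for Mrpl, 0.70 for Mrps and 0.19 over all genes, with 23 members below 0 (all genes 47.4%). Mrps6 had a log2 TE difference of 8.51 ± 3.02 and Mrpl20 of 8.63 ± 3.14 (adjusted p = 0.226 and 0.231). Mrpl20 RPF stood at 46.4, 87.8 and 25.4 CPM in C1483Y, overlapping WT, while its mRNA was 20.8, 267 and 108 CPM in WT and 0.634, 0.0426 and 0.568 in C1483Y. Mrps31 and Mrps22 had log2 TE differences of -12.74 ± 4.32 and -8.70 ± 3.03 (adjusted p = 0.226 for both). As with Torin1, each of these genes had mRNA libraries at or near 0. Without the near-identical libraries edgeR called 1 member, and Mrps22 stood at -2.06 (adjusted p = 0.53).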

How the data were processed

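Each deposited file gives raw counts per gene for a single library, not normalized by the authors. Per the submitters' processing notes the tools were Bowtie 1.1.2, TopHat2 2.1.1 and HTSeq with build mm10; order, settings and strand use were not given in the sources used here. Summary lines and 27 lines with dates in place of symbols (0.089% to 0.264% of gene counts) were left out. Reads placed at several sites were 22.2% to 47.5% of counted lines in RPF and 49.3% to 95.9% in mRNA and did not enter gene counts. No molecular identifiers are mentioned, so intervals cover counting error only.

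Counts were fitted with edgeR 4.0.16 in R 4.3.3 (quasi-likelihood test, TMM, filterByExpr, all 9 libraries of an assay, TE as an interaction over 18), p adjusted by Benjamini-Hochberg across every gene tested, at 0.05, after a check on simulated counts. The simulated spread was smaller than that fitted to the mRNA and TE data, so the check does not show how the test behaves there. CPM values are TMM-scaled. Medians of single libraries used a pseudocount of 0.5 CPM. Alternatives were DESeq2 1.42.0, limma 3.58.1 (voom), other size factors, no filter, a replicate block, 2 groups alone, leaving out each replicate, and leaving out the 2 near-identical mRNA libraries. Members, lists and tests were chosen with earlier results of these data known. Named genes were those with the smallest p or largest change at a mean of at least 10 CPM, plus Mrps18a, Mrps18b, Mrps18c, Mrps30, Mrpl12, Mrpl10 and Mrps36. A planned ranking by level per kilobase was not made because no coding lengths were at hand, so levels are not compared between genes per length. Muscle, neuron, epithelial, leukocyte, endothelial and fibroblast markers are given as levels only.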

Additional observations from a re-analysis of the deposited data

How the results depend on the processing

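Depth and the spread of mRNA set the limits: members with few reads, and most mRNA and TE values, could not show a change of ordinary size. The number of members called in C1483Y RPF was 21 with DESeq2, 4 with the replicate block, 4 with the 2 groups alone and 3 to 17 on leaving out a replicate. In Torin1 RPF it was 1 with limma-voom and 1 with the 2 groups alone (Mrps36), and 0 on leaving out any replicate. DESeq2 called 2 members in Torin1 mRNA, 3 in Torin1 TE, 1 in C1483Y mRNA and 2 in C1483Y TE. Limma-voom called 1 in Torin1 TE. Leaving out the 2 near-identical libraries gave 1 in Torin1 TE and 1 in C1483Y TE. The shares of all genes called under these alternatives are not given here. The counts therefore show how calls depend on the fit, not how members differ from other genes. The mean of 1.24 Mrpl reads per Mrps read in C1483Y RPF was 1.58 without Mrps21, and that of WT went from 1.6 to 1.76.

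For C1483Y mRNA the Mrpl median was -1.34 with DESeq2-type size factors and with DESeq2, -3.62 with no filter, -3.41 with the replicate block, -6.44 without the near-identical libraries and -6.45 to -2.35 on leaving out a replicate. The Mrps median was 0.77 with size factors and with DESeq2, -3.62 with limma-voom, -2.42 with the replicate block, -4.11 without the near-identical libraries and -4.41 to -0.48 on leaving out a replicate. For C1483Y TE the Mrpl median was 3.35 with no filter, 3.05 with the replicate block, 4.17 without the near-identical libraries and 0.96 to 4.18 on leaving out a replicate. The Mrps median was -1.16 with size factors and with DESeq2, 2.34 without the near-identical libraries and 0.32 to 2.35 on leaving out a replicate. For C1483Y RPF, leaving out a replicate gave medians of -0.86 to -0.36 for Mrpl and -1.0 to -0.4 for Mrps. All of these lay below the medians of the full fit (-0.28 and -0.38). The medians over all genes in those fits are not given here. In Torin1 RPF the medians stayed below 0 on leaving out any replicate (-0.56 to -0.24 for Mrpl, -0.55 to -0.12 for Mrps), while in Torin1 mRNA they changed sign (-0.79 to 0.40 and -0.96 to 0.52), as in TE (-0.87 to 0.32 and -1.01 to 0.41). The cause was not tested.

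Among named members in Torin1 RPF, signs reversed for Mrps12 (-0.10 with limma-voom, -0.13 to 1.33 on leaving out a replicate), Mrps18a (0.06 with size factors, 0.46 with limma-voom, 0.35 with the replicate block, 0.03 with the 2 groups alone, -0.30 to 0.31 on leaving out a replicate), Mrps18b (-0.65 to 0.13), Mrps30 (-0.02 with limma-voom, -0.42 to 0.49) and Mrpl10 (-0.43 with limma-voom, -0.16 to 0.57). The replicate numbers were not taken as pairs: same-numbered libraries correlated at 0.035 to 0.142 in RPF of Torin1 and WT, and at 0.03 to 0.068 in RPF of C1483Y and WT, where all 6 libraries of each comparison correlated best with their own number. In mRNA the correlations were -0.015 to 0.02 and -0.01 to 0.034, with 4 and 2 of 6 libraries best with their own number.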
